A study of Oryctolagus cuniculus with 6 samples.

Results

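The collagen genes were taken as every gene in the rabbit retina tables whose symbol has the form COL, a type number, A and a chain number. This rule found 43 of the 28788 genes. They were sorted by the form of the protein into 10 fibrillar collagens, 6 basement membrane collagens (type IV), 10 fibril-associated collagens with interrupted triple helices (FACIT) and 17 other collagens, which hold the beaded-filament, short-chain network, anchoring-fibril, multiplexin and transmembrane types. COL5A1 was not analysed here.

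Poly(A) RNA of whole retina from adult rabbits was sequenced in 3 samples labelled normal and 3 labelled PVR, for proliferative vitreoretinopathy, a disease in which contractile scar-like membranes grow on and under the retina. In the PVR eyes a volume of vitreous was drawn off through a puncture of the sclera and replaced by platelet-rich plasma. Strain, sex, the time between injection and sampling, and whether the normal eyes had any surgery are not given in the sources used here, and neither is whether each sample came from its own animal, so that p-values measure the spread between these samples. The comparison addressed here is how the level of each collagen transcript differed between the PVR and the normal retinas.

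Collagens are secreted or membrane-bound proteins in which chains with a repeated glycine wind into a triple helix. Fibrillar types I, III and V make up scar, tendon and the sclera, whereas types II and XI form the thin fibrils of the vitreous and of cartilage, with the FACIT collagen type IX on their surface. Type IV forms the network of every basement membrane, in the eye including the inner limiting membrane of the retina, Bruch's membrane, the vessel walls and the lens capsule. The membranes of PVR are known to hold collagen laid down by fibroblast-like cells. No collagen sequence was available for printing.

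Counted reads per sample ranged from 31904593 to 43035080. The photoreceptor gene SAG, or arrestin, had between 1341 and 1869 fragments scaled to gene length and library size (FPKM), and GNAT1, rod transducin, between 788 and 1155 FPKM, so the tissue carried these markers of its label in all 6 samples. The library labelled normal 2 stood apart: its 11 lens markers summed to 35207 FPKM, against 17.5 in normal 1, 14.7 in normal 3 and 290 to 334 in the PVR samples. Oligodendrocyte markers summed to 90.1, 212 and 456 FPKM in the normal retinas and to between 54.8 and 58.6 in the PVR samples, and pigment epithelium markers to 181, 248 and 141 against 90.8 to 97.8. Collagens with a mean FPKM of at least 1 in either group are given below for each sample, so that normal 2 can be read apart from the others. The type IV and type VIII results are also given without normal 2.

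Of the 43 collagens, 40 passed the filter on low counts and were tested, as were 18697 of all genes. With edgeR and an adjusted p under 0.05, 3 collagens were higher in PVR and 0 were lower, against a background of 1.09% of all tested genes called higher and 0.615% called lower. The 3 were COL11A1, COL12A1 and COL10A1, and COL11A1 and COL12A1 also passed the threshold of 1 on the log2 fold change, which 1.01% of all tested genes did. The other 37 did not pass. At an unadjusted p under 0.05 there were 12 collagens above 0 and 1 below, or 32.5% of those tested, against 21.2% of all genes. DESeq2 on the same counts called 10 collagens, or 25.0%, against 9.65% of all genes. The 10 were COL5A2, COL9A1, COL10A1, COL11A1, COL12A1, COL19A1, COL21A1, COL23A1 and COL27A1, all higher in PVR, and COL8A1, which was lower. Of these, COL21A1, which is also among the 12 above 0, passed the filter through its PVR reads alone.

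The fitted log2 fold change, PVR minus normal, was above 0 for 31 of the 40 tested collagens, or 77.5%, against 48.9% of all tested genes. Its median was 0.40 over the collagens and -0.01 over all genes. By class it was 0.86 for the fibrillar, 0.24 for the basement membrane, 0.35 for the FACIT and 0.58 for the other collagens. The 2 groups did not overlap, with every PVR sample higher, in 9 collagens (22.5%, background 13.4%), and with every PVR sample lower in 1 (2.5%, background 14.6%). COL21A1, which passed the filter through its PVR reads alone and so had to differ, is counted in the 31 and in the 9. In bulk tissue, a change in the number of cells of a type and a change in RNA per cell cannot be told apart. Markers of other cells are given beside this: the log2 fold change was above 0 for 8 of 8 macrophage markers (summed 11.3 to 28.3 FPKM in normal and 31.2 to 43.5 FPKM in PVR retina). It was below 0 for 7 of 7 photoreceptor markers, whose sums overlapped (14135 to 17949 FPKM in normal and 10990 to 14899 FPKM in PVR retina). EdgeR called none of the macrophage or photoreceptor markers (smallest adjusted p of 0.126 and 0.139). Among 5 Mueller glia markers, 2 were above 0 and 3 below, with a median log2 fold change of -0.17. EdgeR called GLUL (adjusted p = 0.0125) and RLBP1 (adjusted p = 0.0294) lower and none higher. The 5 summed to 1036 to 1316 against 882 to 1001 FPKM. The part of these cells in the collagen levels was not tested.

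**Figure D1:**
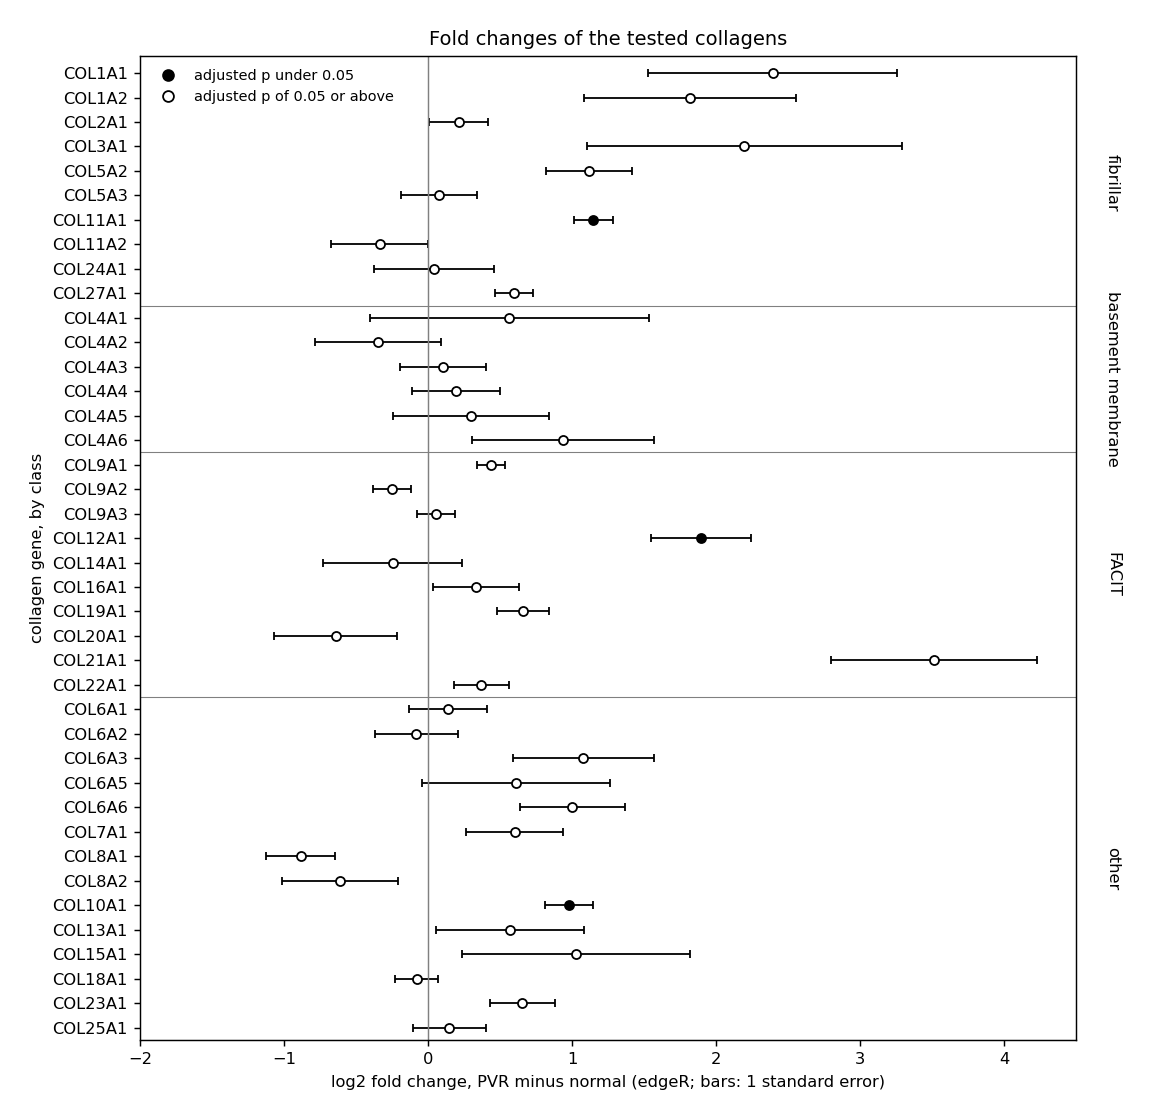
The log2 fold change of each of the 40 tested collagens, PVR minus normal, is plotted by class with bars of 1 standard error from the edgeR fit. Filled points mark the 3 collagens with an adjusted p under 0.05 (COL11A1, COL12A1 and COL10A1), and the widest bars belong to COL3A1, COL4A1, COL1A1, COL15A1 and COL1A2.

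Summed over the 43 genes, collagen transcripts stood at 167, 196 and 176 FPKM in the normal retinas and at 243, 210 and 269 FPKM in the PVR samples, a ratio of the means of 1.34. In FPKM every PVR sample lay above every normal one, but FPKM does not carry the TMM library factors that edgeR used. These were 0.953 in normal 2 and 1.04 in PVR 2, and dividing by them puts the total of normal 2 above that of PVR 2. The separation of the totals thus held on the FPKM scale only. The fibrillar sum was 72.4, 68.8 and 77.6 FPKM against 119, 86.7 and 151 FPKM, and the groups did not overlap. Both separations in FPKM depended on COL11A1, at 26.0 FPKM in PVR 2: without this gene PVR 2 lay within the normal range of the total and of the fibrillar sum. The FACIT sum was 67.4, 69.9 and 66.7 FPKM against 75.4, 64.4 and 80.1 FPKM, so that PVR 2 lay below all normal samples. As a part of the collagen sum, FACIT collagens took 38.0% ± 2.32 in the normal and 30.5% ± 0.642 in the PVR samples (SD, n = 3).

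Relative to its level, the basement membrane sum spread most, from 9.59 to 38.9 FPKM in the normal and from 15.6 to 36.9 FPKM in the PVR samples, with normal 2 the highest of the 6. The other collagens summed to 17.8, 18.5 and 16.98 FPKM against 23.3, 21.6 and 22.2 FPKM, with no overlap. The mean of this sum was 17.7 FPKM in normal and 22.4 FPKM in PVR retina, and that of COL10A1 alone was 3.99 and 8.27 FPKM. COL10A1 thus held most of the difference, and without it the groups overlapped. These sums are descriptions and were not tested. Of all counted reads, collagens took 0.0872% ± 0.00985 in the normal and 0.124% ± 0.0107 in the PVR samples (SD, n = 3).

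**Figure D2:**
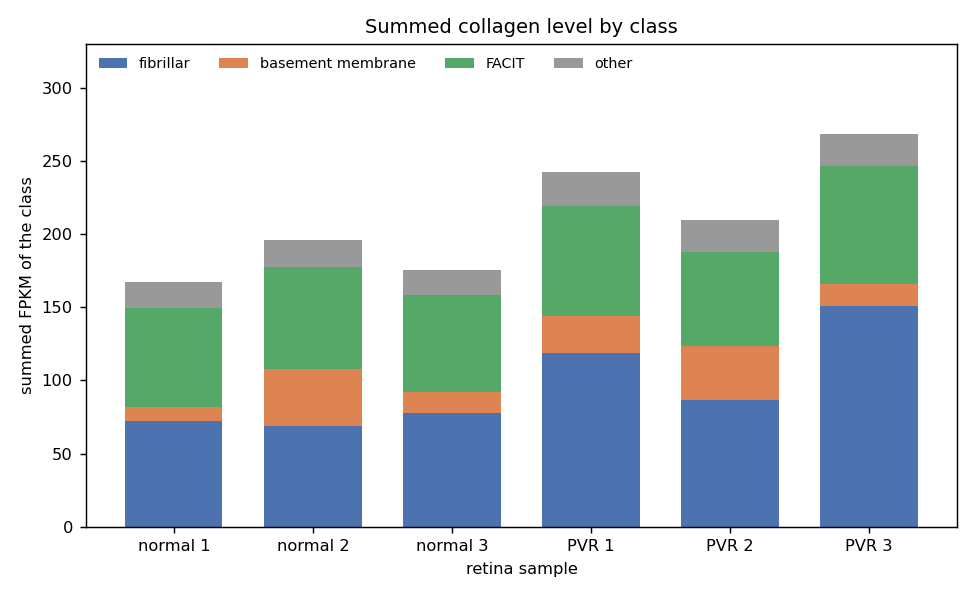
Bars show the summed FPKM of the collagens in each retina sample, stacked by class. The total lies between 167 and 196 in the normal retinas and between 210 and 269 in the PVR samples, and the basement membrane segment is tallest in normal 2 (38.9) and PVR 2 (36.9).

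Among the fibrillar collagens, COL2A1, the chain of type II collagen, had the highest level of any collagen. It stood at 41.8, 41.9 and 46.4 FPKM in the normal retinas and at 51.7, 37.2 and 68.4 FPKM in the PVR samples. The PVR samples lay on both sides of the normal range, with PVR 2 below it, and the log2 fold change of 0.21 (SE 0.21, adjusted p = 0.586) did not pass.

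COL11A1, a chain of type XI collagen, which is built into type II fibrils and limits their width, rose 2.33-fold in mean FPKM. Its level was 9.71, 10.2 and 8.38 FPKM in normal retina and 21.4, 26.0 and 18.7 FPKM in PVR. Every PVR sample lay far above every normal one, and unlike for COL2A1, PVR 2 was the highest of the 6. The log2 fold change was 1.15 (SE 0.14, adjusted p = 0.0155), the smallest adjusted p of the collagens. It stayed under 0.05 in 13 of 15 other settings, the exceptions being the fits without normal 1 (0.0588) and without PVR 1 (0.106). The ratio of COL11A1 to COL2A1 in FPKM was 0.233, 0.244 and 0.181 in the normal retinas and 0.414, 0.699 and 0.273 in the PVR samples. COL11A2, another chain of type XI, was near the floor, between 0.148 and 0.246 FPKM in the 6 samples.

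The chains of the scar collagens, COL1A1 and COL1A2 of type I and COL3A1 of type III, had the largest ratios of group means of the fibrillar class and the least even PVR samples. COL1A1 stood at 2.49, 1.13 and 2.75 FPKM in normal retina and at 11.8, 1.21 and 21.6 FPKM in PVR. COL1A2 stood at 2.27, 1.30 and 2.91 against 8.24, 1.28 and 14.1 FPKM. COL3A1 stood at 1.55, 0.679 and 2.11 against 6.55, 0.232 and 13.7 FPKM. In all 3, PVR 1 and PVR 3 lay above every normal sample while PVR 2 was within or below the normal range, so the groups overlapped.

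Within the PVR group the highest sample exceeded the lowest 17.8-fold for COL1A1, 11.0-fold for COL1A2 and 59.0-fold for COL3A1. Few genes were as uneven: the PVR standard deviation of scaled log2 counts was at least as large in 0.599%, 0.995% and 0.107% of all tested genes. The log2 fold changes were 2.39 (SE 0.87), 1.82 (SE 0.74) and 2.20 (SE 1.09), with adjusted p of 0.179, 0.217 and 0.291. Without PVR 2, a setting that leaves 2 PVR samples, COL1A1 passed with a log2 fold change of 2.92 and an adjusted p of 0.0410, while COL1A2 and COL3A1 did not, at 0.0573 and 0.0803. Without PVR 3 the log2 fold changes fell to 1.55, 1.07 and 1.17, with adjusted p of 0.290, 0.378 and 0.530, and with limma-voom that of COL3A1 was 1.16 (adjusted p = 0.698). Together the 3 chains took 3.77%, 1.59% and 4.42% of the collagen sum in the normal retinas and 10.9%, 1.30% and 18.4% in the PVR samples.

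Of the tested markers of fibrous tissue, 6 of 10 fibroblast and 3 of 6 myofibroblast genes had this order of PVR samples, PVR 2 below PVR 1 below PVR 3, as did 30.4% of all tested genes. PDGFRA and LUM were highest in PVR 2. The 3 genes that follow had the order of the type I chains and were picked after their values were seen. ACTA2, smooth muscle actin and the usual mark of myofibroblasts, stood at 5.85, 1.53 and 8.02 FPKM in PVR 1, PVR 2 and PVR 3, and between 1.16 and 2.14 FPKM in the normal samples. FBLN1, the matrix protein fibulin-1, stood at 4.64, 0.441 and 9.75 FPKM against 0.837 to 2.76 FPKM. LOXL2, an enzyme that cross-links collagen and is on neither of these marker lists, stood at 1.23, 0.170 and 1.60 FPKM against 0.123 to 0.156 FPKM. As with the type I and III chains, PVR 1 and PVR 3 were above the normal range for these 3 genes, and PVR 2 was within it, below it or just above it.

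The whole marker lists were less uneven. The 12 fibroblast markers in the table summed to 92.1, 85.6 and 99.7 FPKM in the normal and 107, 103 and 121 FPKM in the PVR samples, with none of the 10 tested called by edgeR and LUM called higher by DESeq2, and TWIST1 was at 0 in PVR 1 and DPT at 0 in normal 3. The sum was led by THY1 (23.0 to 54.9 FPKM) and LUM (21.8 to 43.5 FPKM), which retinal cells may also express. The 6 myofibroblast markers summed to 12.5, 11.0 and 11.1 against 15.8, 9.33 and 23.5 FPKM, with none called by edgeR, 2 above 0 at an unadjusted p under 0.05 and ACTA2 called higher by DESeq2, and their highest members were TPM2 (3.55 to 8.10 FPKM) and ACTA2. The part of such cells in the collagen levels was not tested.

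**Figure D3:**
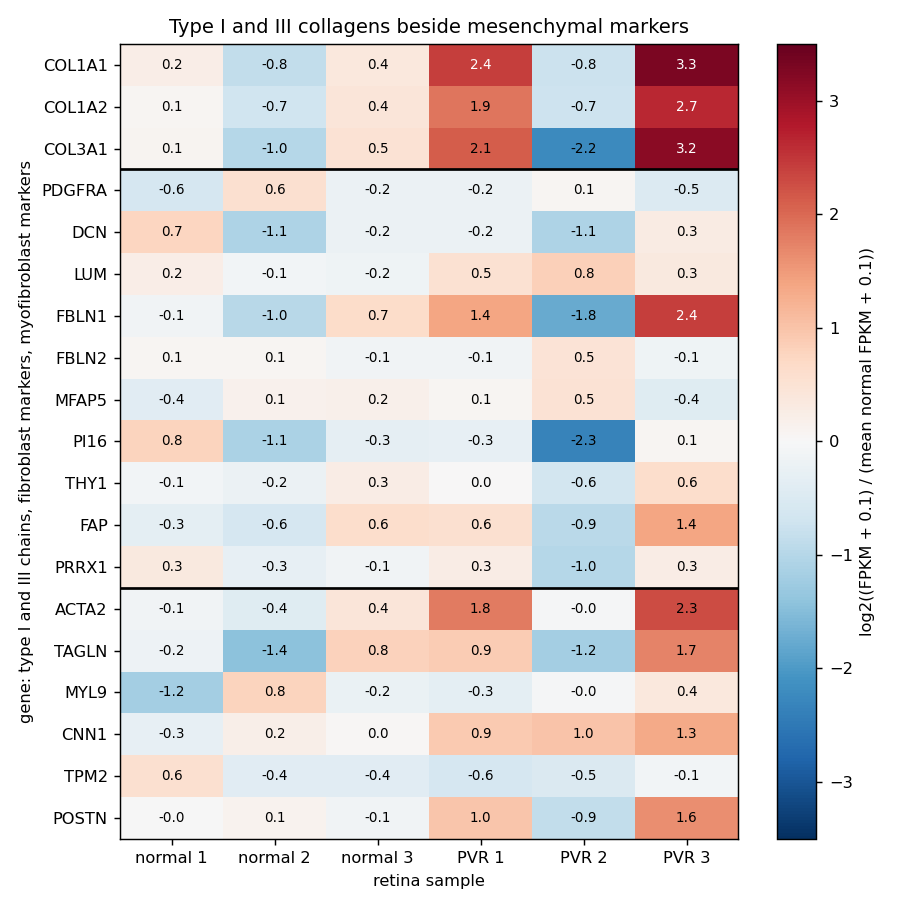
Rows are the 3 chains of type I and III collagen, 10 fibroblast markers and 6 myofibroblast markers, columns are the 6 samples, and colour and printed number give the log2 of (FPKM + 0.1) over the normal mean of FPKM + 0.1. In PVR 1 and PVR 3 the collagen rows are red and in PVR 2 they are blue, a pattern that FBLN1 and ACTA2 share in PVR 1 and PVR 3 and that LUM and MFAP5 do not show.

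COL5A2, a chain of type V collagen, which starts type I fibrils, was the neighbour of COL3A1 among coding genes on the RefSeq assembly. It stood at 1.01, 1.12 and 1.36 FPKM in normal retina and at 2.67, 1.61 and 3.61 FPKM in PVR, with PVR 2 the lowest PVR sample but above every normal one. Its log2 fold change of 1.12 (SE 0.30) had an adjusted p of 0.105 with edgeR and of 0.00366 with DESeq2. COL5A3, the third chain gene of type V, stood at 10.9, 9.75 and 11.2 FPKM against 12.4, 16.1 and 6.74 FPKM. Here PVR 2 was the highest and PVR 3 the lowest of the 6, with a log2 fold change of 0.07 (SE 0.26, adjusted p = 0.891).

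COL27A1, a fibrillar collagen of developing cartilage, stood at 1.38, 1.44 and 1.65 FPKM against 2.51, 2.33 and 2.26 FPKM. The groups were tight and apart, with a log2 fold change of 0.60 (SE 0.13), an adjusted p of 0.0726 with edgeR and 0.00194 with DESeq2. COL24A1, its fellow in the fibrillar class, stood at 1.22, 1.02 and 0.667 against 1.21, 0.485 and 1.42 FPKM, with full overlap and a log2 fold change of 0.04 (SE 0.42, adjusted p = 0.968).

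**Figure D4:**
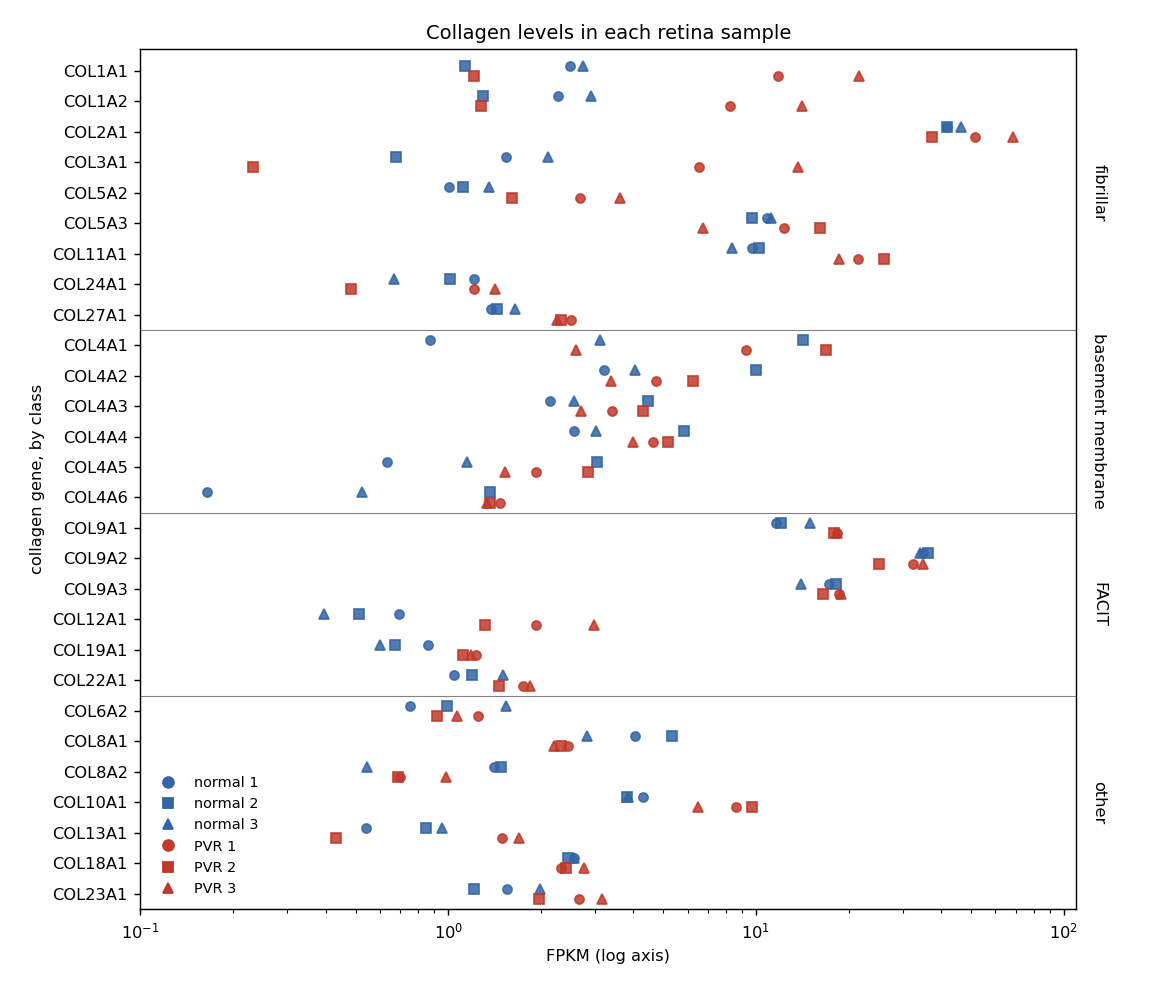
The FPKM of each collagen named by the rule is plotted on a log axis for each of the 3 normal (blue) and 3 PVR (red) samples, by class. The red and blue points are apart for COL11A1, COL12A1 and COL10A1, and the red square of PVR 2 lies at or left of the blue points for COL1A2 and COL3A1.

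The 6 type IV genes lie as adjacent pairs on the RefSeq assembly, COL4A1 with COL4A2, COL4A3 with COL4A4, and COL4A5 with COL4A6, and in mammals each pair is known to be transcribed outward from a shared promoter. None of the 6 passed, with adjusted p from 0.420 to 0.864, and in none were the groups apart. COL4A1, a chain of the type IV found in most basement membranes, stood at 0.876, 14.2 and 3.11 FPKM in normal retina and at 9.30, 16.9 and 2.61 FPKM in PVR. Its partner COL4A2 stood at 3.22, 9.98 and 4.03 against 4.73, 6.24 and 3.39 FPKM. Normal 2 was the highest normal sample and normal 1 the lowest for both, and PVR 3 the lowest PVR sample.

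The same order of normal samples, 2 above 3 above 1, held in all 6 genes, and normal 2 was the highest normal sample in 31.0% of all tested genes. COL4A3 stood at 2.14, 4.46 and 2.56 against 3.40, 4.30 and 2.71 FPKM. COL4A4 stood at 2.56, 5.85 and 3.02 against 4.63, 5.18 and 3.99 FPKM. Both are chains of the mature network of such sites as the kidney filter. COL4A5, which joins them there, stood at 0.633, 3.03 and 1.15 against 1.92, 2.85 and 1.53 FPKM. COL4A6 stood at 0.165, 1.36 and 0.526 against 1.47, 1.37 and 1.33 FPKM, the evenest PVR values of the 6 genes beside the most uneven normal ones but for COL4A1.

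Without normal 2, the median log2 fold change of the 6 genes was 0.93 instead of 0.24, and that of COL4A2 turned from -0.35 (SE 0.44) to 0.35. COL4A6 moved from 0.94 (SE 0.63) to 1.97. Without normal 1 the median was -0.05, and without PVR 2 it was -0.02. The lens markers were also highest in normal 2. In normal 1 and normal 3 they summed to 17.5 and 14.7 FPKM, and type IV to 9.59 and 14.4 FPKM. Endothelial markers, 13 genes led by KDR (54.7 to 76.5 FPKM) and FLT1 (24.7 to 34.4 FPKM), summed to between 96.6 and 100.1 FPKM in the normal retinas and to between 109 and 113 FPKM in the PVR samples, with CDH5 and EMCN at 0 in PVR 1 and PVR 2 and ERG at 0 in PVR 1 and PVR 3. The log2 fold change was below 0 in 10 of the 13, with a median of -1.29, and in 6 every PVR sample was below every normal one. EdgeR called VWF and CDH5 lower and none higher, and DESeq2 called 3 lower and FLT1 higher. With these 0 values, CDH5, EMCN and ERG passed the low-count filter mainly through their normal reads, which favours a lower value in PVR. The counts and the median above include them, and the call of CDH5 is given as a description. The 7 pericyte markers summed to 3.57, 5.75 and 10.3 against 4.83, 3.27 and 5.56 FPKM, with RGS5 called lower by edgeR and by DESeq2 and KCNJ8 at 0 in PVR 2. The part of lens, endothelial cells and pericytes in the type IV levels was not tested.

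Within the pairs, COL4A3 and COL4A4 kept a ratio between 0.679 and 0.846 in the 6 samples. The ratio of COL4A1 to COL4A2 ranged from 0.272 to 2.71, with the lowest value in normal 1 and the highest in PVR 2. On the RefSeq assembly COL4A3 and COL4A4 overlap, and COL4A4 also overlaps RHBDD1, so that reads of these genes may have been hard to assign.

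**Figure D5:**
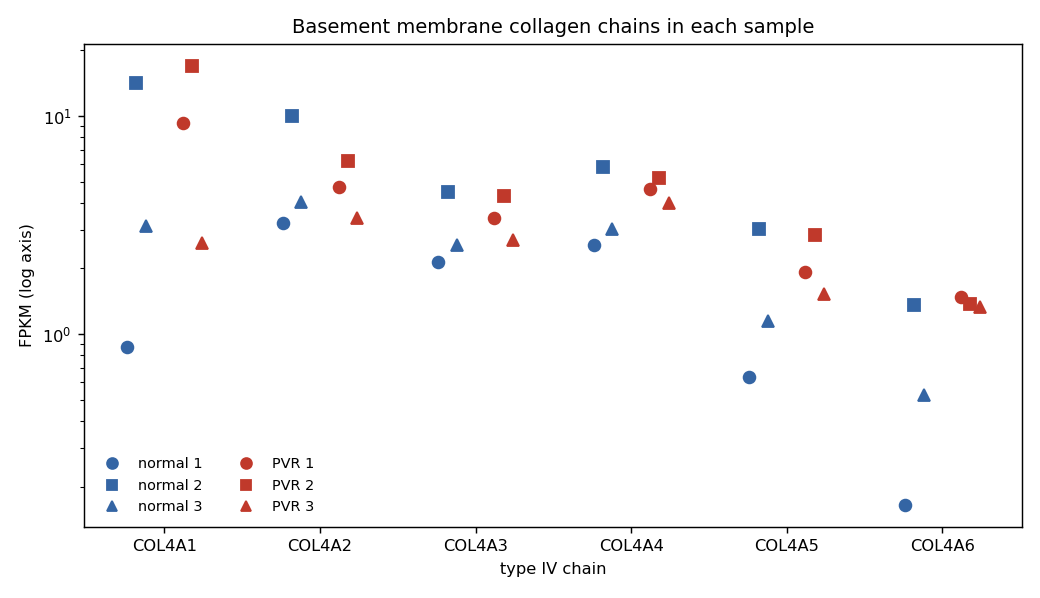
The FPKM of the 6 type IV chains is plotted on a log axis for each sample, with blue for normal, red for PVR and a shape for each replicate number. The blue square of normal 2 is the highest normal point for every chain, and for COL4A1 the normal points run from 0.876 to 14.2.

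The FACIT class held the chains of type IX collagen, which coats type II fibrils, at high levels. COL9A2 stood at 34.8, 36.2 and 34.1 FPKM in normal retina and at 32.3, 25.2 and 34.9 FPKM in PVR, with overlap and a log2 fold change of -0.25 (SE 0.13, adjusted p = 0.304). COL9A3 stood at 17.3, 18.2 and 14.0 against 18.6, 16.5 and 18.9 FPKM, with a log2 fold change of 0.05 (SE 0.13, adjusted p = 0.835). COL9A1 was the chain that lay apart, at 11.6, 12.05 and 14.9 against 18.3, 17.97 and 18.4 FPKM. Its log2 fold change of 0.44 (SE 0.10) had an adjusted p of 0.0768 with edgeR, 0.0249 without normal 3 and 0.00813 with DESeq2. The ratio of COL9A1 to COL9A2 was 0.333, 0.333 and 0.438 in the normal retinas and 0.567, 0.713 and 0.527 in the PVR samples, so that each PVR sample was above each normal one.

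Taking type II, type IX and COL11A1 as the collagens of vitreous fibrils, these 5 genes summed to 115, 118 and 118 FPKM in the normal and to 142, 123 and 159 FPKM in the PVR samples. They took 65.5% ± 4.48 of the collagen sum in normal retina and 58.9% ± 0.413 in PVR (SD, n = 3), with every PVR value below every normal one.

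COL12A1, a FACIT collagen that binds type I fibrils in tendon and cornea, rose 3.89-fold in mean FPKM. It stood at 0.693, 0.512 and 0.394 FPKM in normal retina and at 1.94, 1.31 and 2.97 FPKM in PVR. All PVR samples were above all normal ones, and among them PVR 2 was again the lowest. The log2 fold change was 1.89 (SE 0.35, adjusted p = 0.0478). The call was held in 7 of 15 other settings. It was lost without normal 1 (0.102), normal 2 (0.152), normal 3 (0.0650) or PVR 1 (0.223), and held without PVR 2 (0.0427) and without PVR 3 (0.0491).

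COL19A1, a FACIT collagen of basement membrane zones and the neighbour of COL9A1, stood at 0.862, 0.671 and 0.600 FPKM against 1.23, 1.11 and 1.18 FPKM. As for COL9A1, the PVR samples were close together and apart from the normal ones, with a log2 fold change of 0.65 (SE 0.18), an adjusted p of 0.111 with edgeR and 0.0171 with DESeq2. COL22A1, found at tissue junctions, stood at 1.05, 1.19 and 1.51 against 1.76, 1.47 and 1.84 FPKM, with a log2 fold change of 0.37 (SE 0.19, adjusted p = 0.312) and overlap between normal 3 and PVR 2.

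COL21A1, named after its values were seen, had the largest fitted difference of the collagens from very few reads. It had 5, 2 and 4 reads in the normal retinas and 31, 15 and 83 reads in the PVR samples, and it passed the filter through the PVR samples alone. A gene admitted by the group in which it is high had to differ, so its fitted log2 fold change of 3.51 (SE 0.71) is given as a description with no p. At these counts its FPKM was at most 0.407.

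Among the other collagens, COL10A1, the short-chain collagen that marks hypertrophic cartilage, rose 2.07-fold in mean FPKM, which carries no TMM factor. It stood at 4.31, 3.82 and 3.85 FPKM in normal retina and at 8.62, 9.69 and 6.49 FPKM in PVR, with a gap between the groups. The log2 fold change fitted by edgeR with TMM factors was 0.98 (SE 0.16, adjusted p = 0.0402), just short of the fold threshold. The call was held in 7 of 15 other settings, and was lost without normal 1 (0.107), normal 2 (0.133), normal 3 (0.0530), PVR 1 (0.225) or PVR 2 (0.0924).

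On the RefSeq assembly COL10A1 lies within the span of the gene NT5DC1, and whether reads were counted by strand is not given in the sources used here. NT5DC1 itself stood at 26.8, 22.1 and 36.2 FPKM against 29.6, 29.1 and 28.9 FPKM, with a log2 fold change of -0.02 (SE 0.15, adjusted p = 0.947). The ratio of COL10A1 to NT5DC1 was 0.147 ± 0.0355 in the normal and 0.283 ± 0.0549 in the PVR samples (SD, n = 3), with no overlap. Of the 5 cartilage markers in the table, 3 were tested. EdgeR called none, 1 was above 0 and 1 below at an unadjusted p under 0.05, and DESeq2 called ACAN higher. They summed to 23.0, 23.8 and 13.9 against 27.5, 27.0 and 23.8 FPKM, mostly CNMD (12.9 to 26.3 FPKM). ACAN, the aggrecan core protein, stood at 0.243, 0.378 and 0.0364 against 0.917, 1.08 and 1.13 FPKM (adjusted p = 0.136). MATN1, which marks cartilage, was at 0 in all 3 PVR samples.

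COL8A1 was the one tested collagen with every PVR sample below every normal one. This chain of type VIII collagen, a short-chain network former of Descemet's and Bruch's membranes, stood at 4.06, 5.33 and 2.82 FPKM in normal retina and at 2.44, 2.32 and 2.20 FPKM in PVR. The log2 fold change of -0.89 (SE 0.24) had an adjusted p of 0.107 with edgeR, 0.0238 without normal 3 and 0.00630 with DESeq2, and it was -0.62 (adjusted p = 0.233) without normal 2. COL8A2, the other chain of type VIII, stood at 1.41, 1.49 and 0.546 against 0.699, 0.689 and 0.981 FPKM, with overlap and a log2 fold change of -0.61 (SE 0.40, adjusted p = 0.410), or -0.36 without normal 2.

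Both type VIII chains were highest in normal 2 and lowest in normal 3 among the normal samples. The 9 pigment epithelium markers had the same order there, at 181, 248 and 141 FPKM, and were lower in PVR, at 97.8, 90.8 and 96.6 FPKM. Of the 7 tested, edgeR called LRAT and TTR lower and none higher, and DESeq2 called 3 lower. PMEL was at 0 in normal 1 and PVR 2, and RDH5 in every sample but normal 2 and PVR 2. The part of pigment epithelium in the type VIII levels was not tested.

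The transmembrane collagen COL23A1 stood at 1.56, 1.21 and 1.98 FPKM against 2.66, 1.97 and 3.17 FPKM. PVR 2 lay just below normal 3, and the log2 fold change of 0.65 (SE 0.23) had an adjusted p of 0.167 with edgeR and 0.0432 with DESeq2. COL13A1, a transmembrane collagen of cell adhesions, stood at 0.540, 0.847 and 0.956 against 1.49, 0.433 and 1.69 FPKM. It had the order of the type I chains, with PVR 2 the lowest of the 6, and a log2 fold change of 0.57 (SE 0.52, adjusted p = 0.550).

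COL18A1, the source of endostatin, was nearly the same in every sample, at 2.56, 2.45 and 2.57 against 2.33, 2.42 and 2.76 FPKM. Its log2 fold change was -0.08 (SE 0.15, adjusted p = 0.774). COL6A2, a chain of the beaded filaments of type VI, stood at 0.751, 0.988 and 1.55 against 1.25, 0.922 and 1.07 FPKM, with a log2 fold change of -0.08 (SE 0.29, adjusted p = 0.883).

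The 15 collagens with a mean FPKM below 1 in both groups and no call reached a mean of at most 0.917 FPKM, and 3 of them were not tested. COL17A1, the hemidesmosome collagen, had 6, 13 and 5 reads in the normal and 6, 1 and 21 reads in the PVR samples. COL26A1 had 4, 4 and 7 reads against 1, 0 and 0, and COL28A1 had 0, 1 and 1 against 9, 4 and 0. At such counts no difference could be judged.

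The PVR samples tended to one order across the collagens. PVR 2 was the lowest PVR sample in 23 of the 40 tested, or 57.5%, against 40.4% of all tested genes, and the order PVR 2 below PVR 1 below PVR 3 held in 20, or 50%, against 30.4%. By class, PVR 2 was the lowest in 6 of 10 fibrillar, 1 of 6 basement membrane, 8 of 10 FACIT and 8 of 14 other collagens. Collagens also varied more between samples of a group than most genes, with a median standard deviation of scaled log2 counts of 0.418 in the normal and 0.339 in the PVR samples, against 0.205 and 0.200 over all tested genes.

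The genes that fold, process, cross-link, bind or accompany collagen were followed as 4 lists with 52 genes, of which 49 were in the table and 47 were tested. None was called by edgeR in either direction, with a smallest adjusted p of 0.0527. At an unadjusted p under 0.05 there were 10 above 0 and 3 below, or 27.7%, against 21.2% of all tested genes. DESeq2 called 11, or 23.4%, against 9.65% of all genes, with 9 higher (ADAMTS3, TLL1, LOX, LOXL2, FKBP10, DDR1, MRC2, LUM and OGN) and 2 lower (FMOD and ITGA1).

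Of the 19 folding and modification genes, 2 were above 0 and 0 below at an unadjusted p under 0.05 (10.5%, background 21.2%), and the list's median log2 fold change was 0.08. P4HB, a subunit of the prolyl hydroxylase that lets the triple helix hold, stood at 70.8, 64.9 and 60.0 FPKM against 62.1, 58.5 and 62.7 FPKM. PPIB, a prolyl isomerase of the same compartment, stood at 34.6, 39.0 and 38.0 against 41.4, 41.1 and 41.1 FPKM. The difference of both was small beside that of COL11A1, with log2 fold changes of -0.17 (adjusted p = 0.326) and 0.08 (adjusted p = 0.661).

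Of the 11 tested genes of propeptide removal and cross-linking, 4 were above 0 and 0 below at an unadjusted p under 0.05 (36.4%, background 21.2%), with a median log2 fold change of 0.44. ADAMTS3, which removes the propeptide of type II procollagen, stood at 9.50, 6.49 and 7.87 FPKM against 16.7, 23.3 and 13.5 FPKM. Like COL11A1 it had its highest level in PVR 2 and no overlap, with a log2 fold change of 1.09 (SE 0.21, adjusted p = 0.0527, and 0.0264 without PVR 3). PCOLCE2, an enhancer of procollagen cleavage, stood between 34.4 and 39.9 FPKM in the 6 samples, and its log2 fold change was -0.10 (adjusted p = 0.458). LOXL2, given above, had a log2 fold change of 2.77 (SE 0.75, adjusted p = 0.107), and passed without PVR 2 at 0.0194.

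Of the 8 tested receptors, 2 were above 0 and 1 below at an unadjusted p under 0.05 (37.5%, background 21.2%). ITGB1, the shared chain of the collagen integrins, stood between 37.3 and 44.7 FPKM with full overlap (log2 fold change -0.03, adjusted p = 0.893). DDR1, a collagen-binding kinase, stood at 18.1, 21.6 and 21.1 against 28.1, 26.0 and 29.2 FPKM. Its groups were apart, with a log2 fold change of 0.38 (SE 0.10), an adjusted p of 0.0991 with edgeR and 0.0161 with DESeq2.

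Of the 9 tested small leucine-rich proteoglycans, which bind collagen fibrils, 2 were above 0 and 2 below at an unadjusted p under 0.05 (44.4%, background 21.2%). LUM, or lumican, stood at 28.5, 22.8 and 21.8 FPKM against 35.2, 43.5 and 30.9 FPKM, with a log2 fold change of 0.51 (SE 0.15, adjusted p = 0.122). OGN, or osteoglycin, stood at 21.0, 21.0 and 13.4 against 32.7, 33.3 and 35.5 FPKM, with a log2 fold change of 0.80 (SE 0.18, adjusted p = 0.0757, and 0.0193 without normal 3). The groups were apart for both genes, and PVR 2, the lowest PVR sample for the type I chains, was the highest for LUM and between the other PVR samples for OGN.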

How the data were processed

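Reads of poly(A) RNA were cleaned by the authors with fastp and mapped with HISAT2 on the OryCun2.0 assembly, and htseq-count gave the reads of each gene. The annotation release and strand setting are not given in the sources used here, and the labels and the study's methods name different library kits. The deposited files hold raw counts and FPKM values by the authors for 28788 genes in 6 samples, and the ratio of count to FPKM, scaled by the sample total, gave 1 length per gene in every sample. Levels are printed as FPKM.

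Fold changes came from the counts with edgeR 4.0.16 (TMM factors, filterByExpr, quasi-likelihood test, Benjamini-Hochberg adjustment over all 18697 genes tested), in R 4.3.3. Standard errors are the fold change over the root of F. A call needed an adjusted p under 0.05; the study's methods also ask for a log2 fold change beyond 1. Overlap of groups was read on TMM-scaled counts for single genes, and on FPKM without TMM factors for sums, shares and ratios. The scripts were tested on simulated data. DESeq2 1.42.0, limma 3.58.1 and other scalings, filters and samples left out were tried as 15 alternatives.

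The genes named were every collagen with an adjusted p under 0.05 or a mean FPKM of at least 1 in either group, which gave 28, and from each of 4 pathway lists the called genes and the 2 with the highest mean FPKM; other names are marked where they occur. Marker lists were used for the cell types given beside results. The members and lists were chosen with earlier results of these data known. Gene symbols are those of the files. Neighbours were found by symbol, and 5 list genes by gene ID, in the RefSeq table of mOryCun1.1. This is another build, so no coordinates are given. Replicates of a group differed well beyond counting error (chi-square per degree of freedom 19.6 to 185), so that the number of samples limits the precision.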

Additional observations from a re-analysis of the deposited data

How the results depend on the processing

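Collagens with an adjusted p under 0.05 numbered 3 as reported, 10 with DESeq2 and 1 each with limma-voom, limma on log2(FPKM + 1) and the replicate block, and 0 to 3 with 1 library left out. Those also past the fold threshold numbered 2 as reported, 4 with DESeq2, 1 in each of the other 3 settings and 0 to 3 with 1 library left out. None was called without normal 1 or without PVR 1. Over all genes 318 were called as reported, 1804 with DESeq2, 215 and 220 with voom and log2(FPKM + 1), 92 with the block, and 22 (without PVR 1) to 650 (without PVR 3) with 1 library left out. The replicate block kept COL11A1 among the called collagens and lost COL10A1 and COL12A1, but same-numbered samples share only a number: their deviations from the group means correlated at -0.0129, 0.0734 and 0.0417, and 3 of the 6 samples correlated best with their own number. Genes of the pathway lists called numbered 0 as reported, 11 with DESeq2, 1 with upper-quartile factors, 1 without a filter on low counts and 0 to 3 with 1 library left out. The median log2 fold change of the FACIT collagens was 0.19 on log2(FPKM + 1), a scale that shrinks low genes. That of the other collagens was 0.11 on that scale, 0.31 on log2(FPKM + 0.1) and 0.16 to 0.60 with 1 library left out. The cause of the remaining shifts was not tested.

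Of the values of single named genes, 492 kept their direction and side of the threshold, 17 in 12 genes gained a call and 18 in 3 genes (COL10A1, COL11A1 and COL12A1) lost one. In 11 genes without a call, 27 values changed sign. With all samples kept, COL24A1 was -0.015 with voom and -0.056 with the replicate block, COL5A3 -0.029 with voom and -0.0063 with the replicate block, COL6A2 0.0043 on log2(FPKM + 1) and 0.027 on log2(FPKM + 0.1), and ITGB1 0.0032 with upper-quartile factors, 0.041 on log2(FPKM + 1) and 0.042 on log2(FPKM + 0.1). With 1 library left out, COL24A1 ranged from -0.27 to 0.38, COL2A1 from -0.045 to 0.41, COL4A1 from -0.11 to 2.22, COL4A2 from -0.64 to 0.35, COL4A3 from -0.098 to 0.51 and COL4A4 from -0.028 to 0.67. COL4A5 ranged from -0.081 to 1.19, COL5A3 from -0.21 to 0.34, COL6A2 from -0.29 to 0.23, COL9A3 from -0.058 to 0.15 and ITGB1 from -0.10 to 0.041. The top of the range came without normal 2 for all type IV genes named here. The median log2 fold change of all genes was -0.01 as reported and between -0.02 and 0.06 in the other settings.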
